A study of Mus musculus with 20 samples.

Results

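The 6 transcription factor genes that marked the stomach mesenchyme of the mouse embryo, *Barx1*, *Nkx6-1*, *Lhx9*, *Pitx1*, *Gata4* and *Mecom*, were followed through every RNA-seq library and every list of accessible regions. They are 6 of the 43280 gene symbols in the count tables and were chosen by their RNA levels in the control libraries of these data, far higher in stomach than in intestine, so that difference is given below as a description without a test. Embryonic samples were GFP+ cells sorted at E13.5 from stomachs and intestines that had been separated by microdissection. The labels give the strain as C57BL/6, while the study's reporting describes the animals as of mixed background. Controls were Bapx1-cre;Rosa26mTmG and knockouts (KO) were Eedfl/fl;Bapx1-cre;Rosa26mTmG, with 2 libraries for each organ and genotype. All embryonic groups therefore carried the Cre driver and the reporter, and differed by the floxed *Eed* alleles and by the organ. *Bapx1*-Cre acts in gut mesenchyme, so GFP marked cells with a history of Cre activity and not one mesenchymal cell type, and the driver is not active in gut epithelium. Adult samples were 2 control (WT) and 2 EED-KO libraries of intestinal mesenchyme, which the study's methods describe as GFP+ cells sorted after tamoxifen from *Pdgfrb*-CreERT2 mice with the same reporter, with or without floxed *Eed*. Accessible regions came from ATAC-seq of the 4 embryonic groups, with 1 peak list for each group.

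EED is a core subunit of Polycomb repressive complex 2 (PRC2), which places the repressive mark H3K27me3 on histones and keeps developmental regulators silent outside their proper tissue. The mesenchyme patterns the gut tube through such regulators. BARX1 is a homeobox factor of stomach mesenchyme known for limiting Wnt signalling, in part through secreted Frizzled-related proteins, and so permitting gastric epithelial fate. NKX6-1 is a homeobox repressor best known from pancreatic beta cells and the ventral neural tube. LHX9 is a LIM homeobox factor of the gonadal ridge, limb and forebrain, and PITX1 is a paired-type homeobox factor of the hindlimb, pituitary and first branchial arch. GATA4 is a zinc finger factor of heart, endoderm and foregut, which works with the cofactor ZFPM2. MECOM, also called EVI1, is a zinc finger factor of the PRDM family known from blood stem cells.

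In GRCm38/mm10 the deposited annotation placed *Barx1* at chr13:48662998-48666507 on the plus strand, and the other genes on the minus strand. *Nkx6-1* was at chr5:101659177-101664996, *Lhx9* at chr1:138825186-138848577, *Pitx1* at chr13:55825051-55836192, *Gata4* at chr14:63198922-63271692 and *Mecom*, the longest, at chr3:29951296-30548008. Of the 4 members with an entry in the RefSeq promoter table, the bases directly upstream of a transcription start are shown for the 3 homeobox genes, which had a promoter peak in all 4 lists, and for *Mecom* a peak is shown that only the stomach lists held. Promoter sequences are the 250 bases before the start of *Barx1* (chr13:48662748-48662997, plus strand), *Nkx6-1* (chr5:101664997-101665246, minus strand) and the most upstream start of *Lhx9* (chr1:138848578-138848827, minus strand). The *Mecom* peak lies just upstream of the deposited gene model at chr3:30549076-30549290 and is given on the plus strand. All are from the GRCm38 assembly in RefSeq and hold no annotated exon, and capitals mark CG dinucleotides.
Barx1: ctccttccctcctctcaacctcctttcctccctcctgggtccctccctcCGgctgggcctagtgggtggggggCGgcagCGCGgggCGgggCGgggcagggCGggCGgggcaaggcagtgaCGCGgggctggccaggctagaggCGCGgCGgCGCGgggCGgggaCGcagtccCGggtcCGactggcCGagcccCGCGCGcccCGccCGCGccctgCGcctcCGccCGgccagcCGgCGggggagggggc
Nkx6-1: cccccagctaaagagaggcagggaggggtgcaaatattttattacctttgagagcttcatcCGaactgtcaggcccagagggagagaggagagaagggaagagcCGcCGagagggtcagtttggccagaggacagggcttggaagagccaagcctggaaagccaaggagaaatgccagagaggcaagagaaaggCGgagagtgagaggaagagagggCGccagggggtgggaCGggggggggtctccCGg
Lhx9: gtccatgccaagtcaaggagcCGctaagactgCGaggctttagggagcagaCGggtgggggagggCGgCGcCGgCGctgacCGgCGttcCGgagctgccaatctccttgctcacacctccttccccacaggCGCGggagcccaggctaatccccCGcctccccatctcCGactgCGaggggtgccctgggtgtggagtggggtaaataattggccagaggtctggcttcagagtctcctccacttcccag
Mecom peak: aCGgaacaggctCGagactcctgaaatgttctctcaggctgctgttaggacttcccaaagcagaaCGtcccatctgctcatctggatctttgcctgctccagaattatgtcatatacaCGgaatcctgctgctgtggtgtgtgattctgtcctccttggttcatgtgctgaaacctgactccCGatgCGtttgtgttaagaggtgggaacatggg
The *Barx1* promoter was dense in CG, with 31 in its 250 bases and 81.6% G or C, and 92.5% of the 41188 coding starts had fewer. The printed, most upstream start of *Lhx9* had 15 CG, more than 62.6% of starts, and *Nkx6-1* had 7, more than 41.4% of starts, beside a median of 10 over all starts. The other starts of *Lhx9*, not printed, had 3 to 5 CG, fewer than *Nkx6-1*. The *Mecom* peak held 6 CG in 215 bases. Neither AGATAA, a motif of GATA factors, nor TAATTA, a motif shared by many homeobox factors, was found on either strand of these 4 sequences. Among all starts 8.73% held AGATAA and 4.49% held TAATTA, and among windows of 215 bases at control stomach peaks the shares were 9.36% and 3.81%.

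Embryonic libraries held 30236159 to 39606157 counts on genes and adult libraries 11404712 to 15903642, so a count of 3 in the smallest libraries was 0.0992 and 0.263 CPM (counts scaled to the same total in each library). *Eed* fell from 40.1 and 41.5 to 11.5 and 7.40 CPM in stomach and from 38.1 and 40.1 to 10.7 and 8.59 CPM in intestine (log2 fold changes −2.11 ± 0.21 and −2.02 ± 0.21, edgeR adjusted p = 0.00174 and 0.00464). In adults the knockout could not be checked in this way, since *Eed* was 29.7 and 33.4 CPM in control and 25.7 and 25.0 CPM in KO (log2 fold change −0.32 ± 0.21, edgeR adjusted p = 0.317). All 8 mesenchyme markers were at 1 CPM or more in every embryonic group, and 7 of 8 in adults, where *Nkx3-2* (*Bapx1*) was lower. RNA of epithelial markers was also present. The 8 epithelial markers summed to 109 to 117 CPM in control stomach and 66.3 to 106 CPM in control intestine, where 3 of 8 were lower by the thresholds used below. They summed to 90.4 to 125 CPM in KO stomach and 69.6 to 78.6 CPM in KO intestine. The part of epithelial cells in the results was not tested. The study calls the 2 libraries of a group biological replicates, and the labels do not say from which animals or pools each came, so p-values measure the spread between these samples. In bulk RNA, fewer cells of a type and less RNA per cell cannot be told apart. KO libraries held fewer spike-in counts (4871 to 14932) than embryonic controls (26227 to 37590), and under scaling to spike-in totals the median log2 change over all genes was 2.39 in KO stomach and 1.85 in KO intestine. Changes below are relative to the bulk of genes, after TMM scaling.

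In control embryos all 6 genes were expressed in stomach and were low or undetected in intestine. *Barx1* was at 627 and 557 CPM in control stomach and at 0.534 and 1.48 CPM in control intestine. *Nkx6-1* was at 3.13 and 3.54 CPM in control stomach and had 0 counts in both control intestine libraries, where 3 counts over the group would be 0.0459 CPM. *Lhx9* was at 11.6 and 13.9 CPM in control stomach and had 2 counts in one control intestine library and 0 in the other. *Nkx6-1* and *Lhx9* were thus under that floor in control intestine, while *Barx1* had 19 and 44 counts there. *Mecom* was almost as restricted, at 38.8 and 52.5 CPM in stomach against 0.197 and 0.202 CPM in intestine. *Pitx1* and *Gata4* kept a low intestinal level. *Pitx1* was at 159 and 219 CPM in control stomach and 7.73 and 13.1 CPM in control intestine, and *Gata4* at 14.5 and 15.5 CPM in control stomach and 1.01 and 1.38 CPM in control intestine. Stomach and intestine values overlapped for none of them, as the genes were chosen for this difference. Antisense genes that overlap *Mecom* and *Pitx1* had at most 3 and 5 counts in an embryonic library.

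As a description of the values that chose the genes, the log2 difference, control intestine over control stomach, was −9.23 ± 0.41 (SE) for *Barx1*, −7.82 ± 0.27 for *Mecom*, −4.18 ± 0.27 for *Pitx1* and −3.66 ± 0.35 for *Gata4*. *Nkx6-1* was at least 72.9-fold lower in intestine, and for *Lhx9* the stomach level was 419 times the intestinal level with a 95% counting interval of 116 to 3465. Ordered from the lowest of the 16218 genes in the fit, *Nkx6-1* was 2nd, *Barx1* 3rd, *Lhx9* 7th, *Mecom* 9th, *Pitx1* 89th and *Gata4* 131st. In the same comparison 3.39% of all genes were called lower in intestine, where a call needed a log2 change beyond 1 in size with its adjusted p under 0.05. All 6 members were among them, which the choice of the genes had fixed and which is no result.

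**Figure D1:**
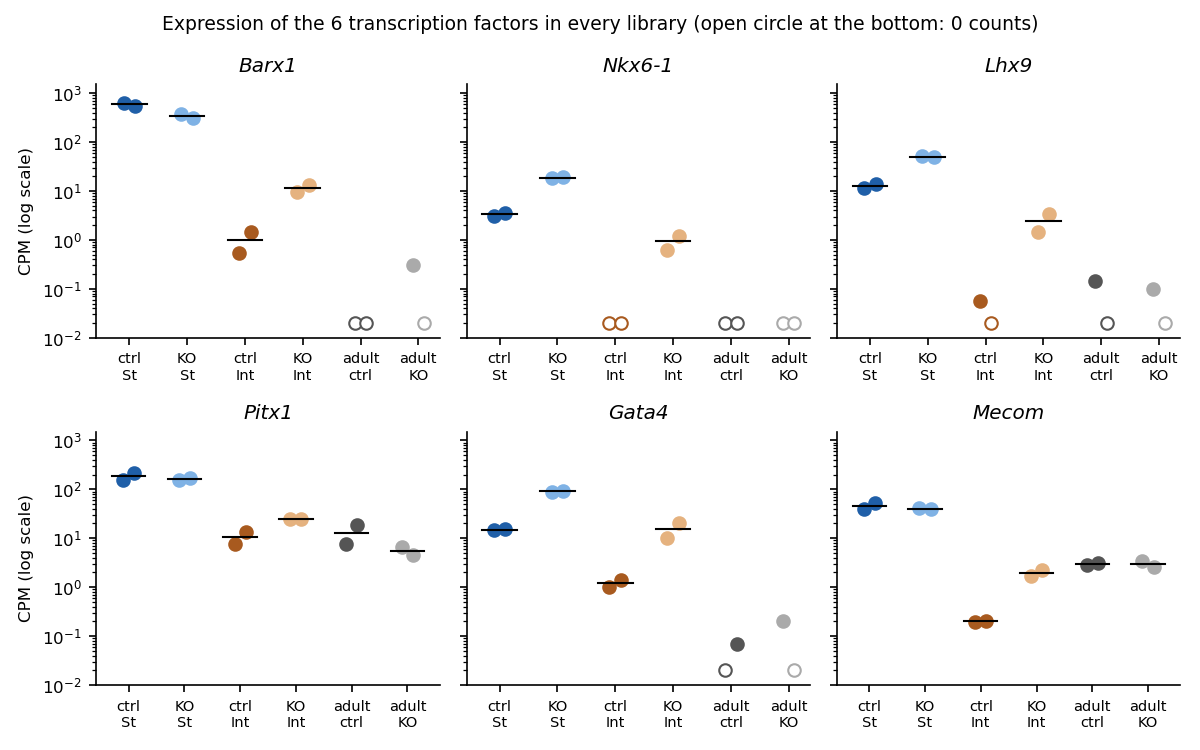
Level of each gene in CPM (log axis) in every library, with a point for each library, a line at the mean of its group and open circles at the bottom for libraries with 0 counts. Control stomach points lie above control intestine points in all 6 panels, KO intestine points lie between them for 5 genes and next to control stomach for *Gata4*, and adult points are near 0 except for *Pitx1* and *Mecom*.

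Per exon length, the 6 genes spanned a wide range in control stomach. *Barx1* led at 1285 ± 110 TPM (counts divided by the exon length of the gene and scaled to the same sum in each library, mean ± SD, n = 2), followed by *Pitx1* at 216 ± 48.6 TPM. *Gata4*, at 11.7 ± 0.495 TPM, and *Mecom*, at 11.2 ± 2.34 TPM, did not differ beyond their spread. *Nkx6-1* (4.83 ± 0.411 TPM) and *Lhx9* (4.08 ± 0.516 TPM) were the lowest. Of the 4 embryonic groups, control stomach was the highest for *Barx1*, and KO stomach was the highest for *Nkx6-1*, *Lhx9* and *Gata4*. For *Pitx1* and *Mecom* the control and KO stomach ranges overlapped, at 192 ± 17.7 and 10.3 ± 0.0984 TPM in KO stomach. For *Gata4* the ranges of KO intestine (12.0 ± 6.10 TPM) and control stomach overlapped. All other groups next to each other in the order of a gene's embryonic levels were separate in their 2 libraries.

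Loss of *Eed* in stomach raised 3 of the 6 genes and left the other 3 under the threshold. *Gata4* was at 14.5 and 15.5 CPM in control and at 87.2 and 93.8 CPM in KO stomach. *Nkx6-1* went from 3.13 and 3.54 CPM to 18.1 and 19.5 CPM, and *Lhx9* from 11.6 and 13.9 CPM to 51.2 and 49.4 CPM. For each of the 3, both KO libraries lay well above both controls. In edgeR's quasi-likelihood test with Benjamini-Hochberg adjustment over all genes, *Gata4* rose by 2.59 ± 0.30 on the log2 scale (adjusted p = 0.00303). *Nkx6-1* rose by 2.49 ± 0.27 (edgeR adjusted p = 0.00404) and *Lhx9* by 1.98 ± 0.32 (edgeR adjusted p = 0.0116). The *Lhx9* call was lost without control stomach replicate 1, without control stomach replicate 2 or without KO stomach replicate 2 (edgeR adjusted p from 0.0505 to 0.0981), and in DESeq2 with 1 RUVg factor (1.08, adjusted p = 0.199). Across all genes 4.84% were called higher and 0.808% lower in KO stomach, and the median log2 change was 0.89 over the 6 genes and 0.00084 over all genes. These tests share the control stomach libraries with the choice of the genes.

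*Barx1*, the gene with the highest level, was lower in KO stomach, at 379 and 310 CPM against 627 and 557 CPM, without overlap. Its log2 fold change of −0.78 ± 0.27 did not pass the test (edgeR adjusted p = 0.141). The adjusted p was 0.0300 in DESeq2, 0.0205 in edgeR on the compared groups alone and 0.0154 in edgeR without the filter, and the change stayed under 1 in size in each. *Pitx1* was at 152 and 166 CPM in KO stomach (−0.25 ± 0.23, edgeR adjusted p = 0.579), and *Mecom* at 40.5 and 39.4 CPM (−0.19 ± 0.17, edgeR adjusted p = 0.548). For these last 2 genes the KO libraries lay within the range of the controls or overlapped it. Under spike-in totals the 3 values were 1.56 for *Barx1*, 2.16 for *Pitx1* and 2.18 for *Mecom*, all under the median shift of all genes. In the same libraries, the summed level of 4 limb and jaw mesenchyme markers went from 0.290 to 0.459 CPM in control stomach to 42.3 to 53.7 CPM in KO stomach, with 4 of 4 called higher. The 5 endothelial markers summed to 14.4 to 15.2 CPM in control and 23.7 to 43.8 CPM in KO stomach, with 3 of 5 called higher. The 7 mesothelial markers, among them 2 under 1 CPM, summed to 873 to 931 and 571 to 641 CPM, with 0 of 7 called. They did not move together. Of the 7, 3 had a log2 change above 0, among them *Wt1*, with means of 76.8 CPM in control and 126 CPM in KO stomach. The others fell, among them *Upk3b*, with means of 290 and 149 CPM. Pancreatic markers, relevant because *Nkx6-1* is also a pancreatic gene, summed to at most 1.28 CPM in any stomach library, and *Ptf1a* had 0 counts. The part of these other cell types in the result was not tested.

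In intestine all 6 genes were higher after loss of *Eed*. *Gata4* went from 1.01 and 1.38 CPM to 10.2 and 20.5 CPM, *Barx1* from 0.534 and 1.48 CPM to 9.47 and 13.2 CPM, and *Mecom* from 0.197 and 0.202 CPM to 1.69 and 2.25 CPM. *Pitx1* went from 7.73 and 13.1 CPM to 24.4 and 24.2 CPM. *Nkx6-1*, with 0 counts in both controls, was at 0.633 and 1.23 CPM in KO intestine, and *Lhx9* was at 1.48 and 3.31 CPM. No gene overlapped between the genotypes. With 2 libraries in each group this is weak on its own, and the share of all genes without overlap was not counted. Replicate 2 of KO intestine was above replicate 1 for 5 of the 6 genes, all but *Pitx1*.

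The tests of these differences, which share the control intestine libraries with the choice of the genes, called all 6 higher, where 2.38% of all genes were called higher and 0.228% lower. *Gata4* rose by 3.69 ± 0.36 on the log2 scale (edgeR adjusted p = 0.00341), *Barx1* by 3.53 ± 0.37 (0.00469), *Mecom* by 3.28 ± 0.31 (0.00324) and *Pitx1* by 1.23 ± 0.25 (0.0473). *Nkx6-1* was at least 20.0-fold higher in KO than the floor of 3 counts over the control group (edgeR adjusted p = 0.00986). *Lhx9* in KO was 77.0 times its control level with a 95% counting interval of 21.0 to 641 (edgeR adjusted p = 0.00817). The median log2 change of the 6 was 3.61, beside 0.0058 for all genes, and it stays the same with *Nkx6-1* placed at its bound. The calls depended on the 2 control libraries, as did those over all genes, which became far fewer without either library. Without control intestine replicate 1, *Barx1* (2.93 ± 0.30) was the only member still called. The one control left was assumed to vary like the other groups. Without control intestine replicate 2, *Nkx6-1* and *Lhx9* lost the call and the other members kept it. The *Pitx1* call was also lost without either KO intestine library (edgeR adjusted p = 0.0924 and 0.124) and in a fit of the compared groups alone (1.22, edgeR adjusted p = 0.0971). No direction changed without any one library. The 5 endothelial markers summed to 14.9 to 19.1 CPM in control and 43.3 to 44.2 CPM in KO intestine (1 called higher, *Cdh5*), and the 4 limb and jaw markers to 6.12 to 13.6 and 29.1 to 32.1 CPM (3 called higher). Most of the limb and jaw sum was *Hoxd13*, with means of 9.58 CPM in control and 21.1 CPM in KO intestine. *Alx1*, *Tbx5* and *Tbx4* were under 1 CPM in control and had means of 5.00, 3.44 and 0.995 CPM in KO intestine. The 3 markers of the spleen primordium, which forms in the mesenchyme beside the stomach, summed to 313 to 338 CPM in control intestine. In KO intestine they summed to 247 to 296 CPM, with 0 of 3 called. Most of this sum was *Tcf21*, with means of 325 CPM in control and 267 CPM in KO intestine. The other 2 went the other way. *Nkx2-5* had means of 0.828 and 3.74 CPM, and the defining gene *Tlx1* had 0 counts in control and 3 and 19 counts in KO intestine. The part of these cells in the result was not tested.

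**Figure D2:**
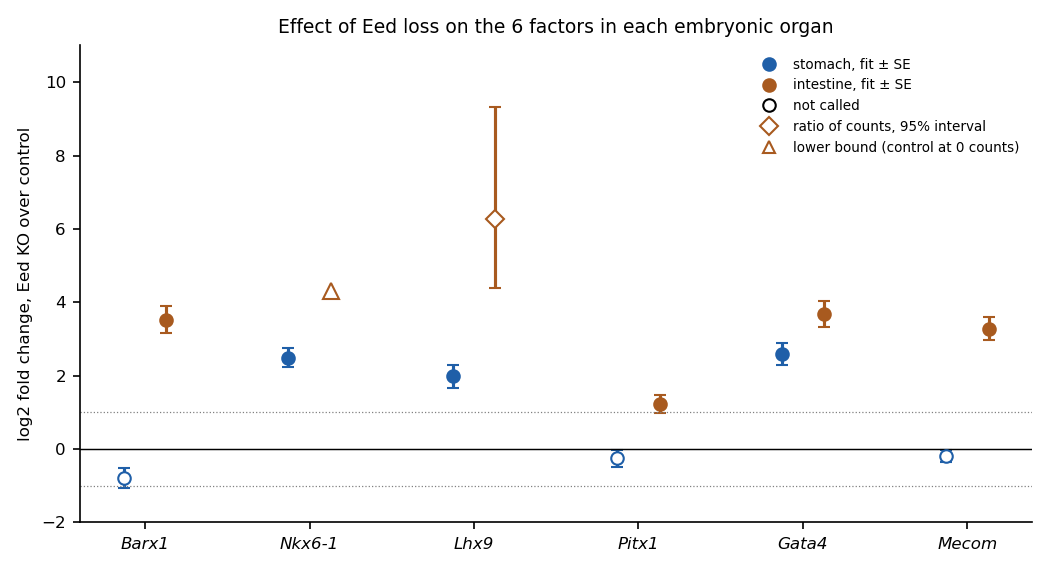
Log2 fold change of each gene, KO over control, in stomach and intestine, as fitted values with their SE, filled where called, with the *Lhx9* ratio of counts and its 95% interval and the *Nkx6-1* lower bound for intestine. Dotted lines mark a log2 change of 1 in either direction. Stomach values run from −0.78 for *Barx1* to 2.59 for *Gata4*, and intestinal values from 1.23 for *Pitx1* upwards.

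The gap between the organs was asked again in the KO libraries. The genes were chosen by their levels in control libraries, but with earlier results of these data known. This comparison is therefore not an independent test. *Barx1* was at 379 and 310 CPM in KO stomach and 9.47 and 13.2 CPM in KO intestine, and *Pitx1* at 152 and 166 against 24.4 and 24.2 CPM. *Gata4* was at 87.2 and 93.8 against 10.2 and 20.5 CPM. The KO organs overlapped for no gene, stomach being the higher each time, and here too the share of all genes without overlap was not counted. All 6 were called lower in KO intestine, where 2.94% of all genes were called lower and 1.46% higher. The log2 difference was −4.93 ± 0.32 for *Barx1* (edgeR adjusted p = 0.000611), −4.40 ± 0.36 for *Lhx9* (0.00142), −4.34 ± 0.21 for *Mecom* (0.000179) and −4.34 ± 0.30 for *Nkx6-1* (0.00142). It was smaller in size for *Pitx1*, at −2.71 ± 0.25 (edgeR adjusted p = 0.00171), and for *Gata4*, at −2.56 ± 0.30 (edgeR adjusted p = 0.00389). From the lowest gene the members ranked 19th (*Barx1*), 34th (*Lhx9*), 36th (*Mecom*), 37th (*Nkx6-1*), 142nd (*Pitx1*) and 163rd (*Gata4*), and their median was −4.34 against −0.0011 for all genes. The 6 calls held without any one library, and under spike-in totals those of *Gata4* and *Pitx1* were lost (edgeR adjusted p = 0.130 and 0.0577).

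Set against the stomach, the intestinal levels after loss of *Eed* remained low for most of the genes. *Barx1* in KO intestine was 1.92% of its control stomach level, up from 0.170% in control intestine, and *Mecom* was 4.31%, up from 0.436%. *Pitx1* reached 12.9% from 5.52%, *Lhx9* 18.8% from 0.220% and *Nkx6-1* 27.9% from 0. *Gata4* alone reached the control stomach level, at 102% from 7.97%, with one KO library below and one above the controls. Because *Gata4*, *Nkx6-1* and *Lhx9* also rose in stomach, the same intestinal levels were a smaller share of KO stomach, at 16.9%, 4.95% and 4.76%. *Barx1* was 3.29%, *Mecom* 4.93% and *Pitx1* 15.3% of KO stomach.

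These shares can be read beside the 549 genes called lower in control intestine than in control stomach. Their median share was 25.8% in control intestine over control stomach, 41.3% in KO intestine over control stomach and 39.9% in KO intestine over KO stomach (quartiles 24.0 and 56.3%). *Barx1*, *Nkx6-1*, *Lhx9* and *Mecom* were among the 21 of these genes under 1% in control intestine, which had a median of 4.95% of KO stomach in KO intestine (quartiles 4.04 and 10.5%). That median is the value of *Nkx6-1* itself. The 21 genes are therefore no separate measure for these 4, and closeness to their median is in part built in. Against control stomach the same 21 genes had a median of 22.2% in KO intestine (quartiles 10.7 and 43.8%), with *Barx1* and *Mecom* below that range. Whether stomach cells were present in the intestinal samples was not tested. Of the 549 genes 87 (15.8%) were called higher and 1 (0.182%) lower in KO intestine, where 2.38% and 0.228% of all genes were. In KO stomach 65 (11.8%) were called higher and 36 (6.56%) lower, beside 4.84% and 0.808% of all genes, and 298 (54.3%) were lower in KO intestine than in KO stomach, and the counts against control share control libraries with the choice of the 549.

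**Figure D3:**
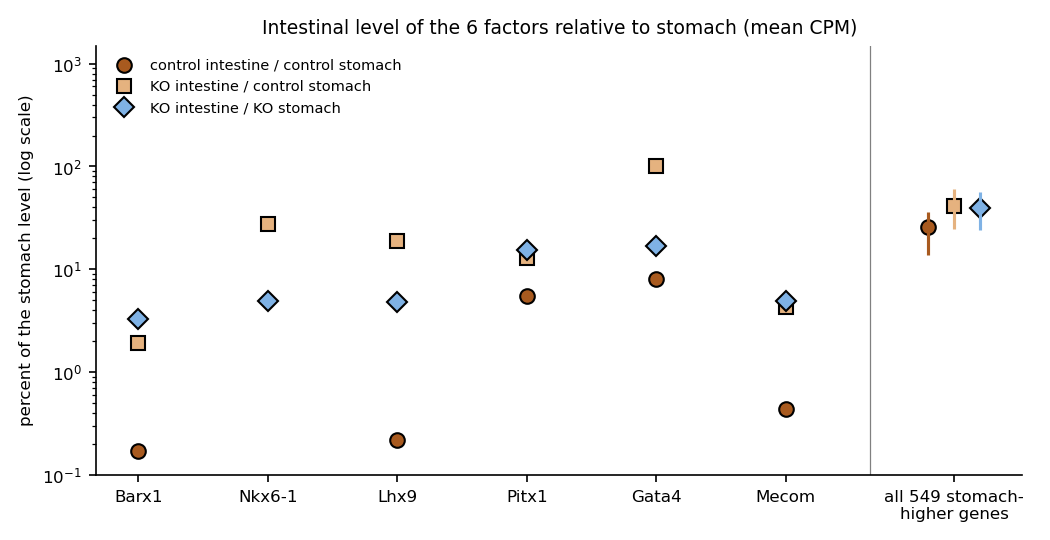
Mean intestinal CPM of each gene as a percent of its mean stomach CPM (log axis), for control over control, KO intestine over control stomach and KO intestine over KO stomach, with the medians and quartiles of the 549 stomach-higher genes at the right. *Nkx6-1* has no control point because it had 0 counts in control intestine. Against KO stomach, 4 of the 6 genes sit between 3.29% and 4.95% and the other 2 at 15.3% and 16.9%.

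The effect of *Eed* loss was larger in intestine than in stomach for all 6 genes, as a difference of the 2 log2 changes. This difference uses the control libraries that chose the genes and is given as a description. It was 4.31 ± 0.46 for *Barx1* and 3.48 ± 0.36 for *Mecom*, which were past the study's threshold for such genes (a log2 difference beyond 1 in size with its adjusted p under 0.2), as were 0.191% of all genes in this direction. *Pitx1* (1.47 ± 0.34) and *Gata4* (1.09 ± 0.45) were not past it. The count past the threshold depended on the fit, with 5 of 6 under a replicate block or in DESeq2 (all but *Gata4*), 6 in DESeq2 with 1 RUVg factor and 0 under spike-in totals. Over all 16218 genes the count in this direction was 31 in the main fit and 171 under the block. It was 99 in DESeq2, 134 with the RUVg factor and 0 under spike-in totals, so that last fit says nothing about the members. The fitted values of *Nkx6-1* and *Lhx9* rest on a control group with 0 and 2 counts and were not past the threshold in the main fit either.

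The closest relatives of the 6 factors were counted from a list of 9 paralogs, of which 7 entered the embryonic fit. In KO stomach 5 of the 7 were called higher and 0 lower. They were *Pitx3* (log2 fold change 5.20, with at most 1 count in a control stomach library), *Lhx2* (3.15), *Barx2* (2.20), *Gata6* (1.54) and *Gata5* (1.46). *Gata5* (2.45) and *Gata6* (1.28), the zinc finger relatives of *Gata4*, were among those also called higher in KO intestine, as *Gata4* was. None of the 5 stomach calls, nor those of *Gata5* and *Gata6* in intestine, held in every fit without 1 library. *Barx2* (−2.90) and *Gata6* (−1.25) were called lower in KO intestine than in KO stomach. *Prdm16*, a relative of *Mecom*, was called in none of these comparisons, and *Nkx6-2* and *Nkx6-3* were too low to enter the fit.

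Among 9 cofactors of these proteins only *Zfpm2*, the partner of GATA4, was called, higher by 1.18 in KO stomach (edgeR adjusted p = 0.00815) and lower by 1.47 on the log2 scale in KO intestine than in KO stomach. Of 10 genes of the Wnt pathway linked to BARX1, 2 were called higher in KO stomach, the ligand *Wnt11* (1.41) and the secreted inhibitor *Sfrp2* (1.39). In KO intestine 2 others were called higher, the ligand *Wnt2* (4.20) and the Wnt-responsive factor *Lef1* (2.76). *Sfrp1*, a secreted inhibitor known as a target of BARX1, was not called in any embryonic KO comparison, with 1018 and 897 CPM in control stomach and 749 and 794 CPM in KO stomach. Lower in KO intestine than in KO stomach were 4 of the 10, *Sp5* (−3.38), *Lef1* (−1.75), *Wnt11* (−1.64) and *Sfrp2* (−1.59). Of all these cofactor and pathway calls, those of *Zfpm2* and *Wnt11* between the KO organs were the ones that held in every fit without 1 library.

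Of 20 other transcription factors of gut mesenchyme, 3 were called higher in KO stomach and 2 in KO intestine. *Nkx2-3* (4.32), *Hand1* (2.89) and *Tbx3* (1.80) rose in stomach, and *Sox9* (2.07) and *Isl1* (1.67) in intestine. The control stomach libraries differed widely for *Nkx2-3* (2.06 and 0.204 CPM) and *Hand1* (1.94 and 0.280 CPM), whose log2 changes were 6.72 and 4.82 without control stomach replicate 1 and 3.41 and 2.05 without replicate 2. Of these 5 calls, that of *Nkx2-3* alone held in every fit without 1 library. Between the KO organs 3 of the 20 were called higher in intestine, *Hand1* (3.69), *Nkx2-3* (2.68) and *Foxf2* (1.18), and 5 lower, *Six2* (−2.04), *Sox9* (−1.66), *Isl1* (−1.62), *Wt1* (−1.23) and *Osr1* (−1.05). In every fit without 1 library 2 of these 8 calls held, *Foxf2* and *Sox9*.

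Genes with the most similar course were sought as the smallest root mean square difference of centred log2(CPM + 0.5) values over the 8 embryonic libraries, among 13380 genes. *Nkx6-1* was nearest to *Emx2* (0.292), *Sim2* (0.294) and *Esr1* (0.523), and *Pitx1* to *Kcns3* (0.318), *Six2* (0.338) and *Bmpr1b* (0.423). *Gata4* was nearest to *Prrx1* (0.473), *Dmrt3* (0.594) and *Eya4* (0.610), and *Lhx9* to *Pappa2* (0.514), *Prrx1* (0.656) and *Sim2* (0.844). *Mecom* was nearest to *Lor* (0.686), *Cdo1* (0.688) and *Kcns3* (0.738). *Barx1* had no close match, its nearest being *Lor* at 1.58, *Pappa2* at 1.65 and *Cdo1* at 1.67. A pseudocount of 2 CPM kept 10 of these 18 names.

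In adult intestinal mesenchyme 4 of the 6 genes were at or near 0. *Nkx6-1* had 0 counts in all 4 libraries, *Barx1* had 3 counts in 1 KO library and 0 in the others, and *Lhx9* and *Gata4* had at most 2 counts in any library. Only *Pitx1* and *Mecom* passed the filter on low counts. *Pitx1* was at 7.46 and 18.4 CPM in control and at 6.62 and 4.56 CPM in KO. The control libraries differed from each other by more than the lower of them differed from KO. *Mecom* was at 2.85 and 3.08 CPM in control and 3.41 and 2.63 CPM in KO, with overlap. Adult reads were counted without strand, so reads of *Mecom* and *Pitx1* and of their antisense genes cannot be told apart. Neither was called (*Pitx1* −1.21 ± 0.49, edgeR adjusted p = 0.121; *Mecom* 0.02 ± 0.50, edgeR adjusted p = 0.980), whereas 12.3% of the 15039 genes tested were called higher and 7.23% lower. At an unadjusted p under 0.05 in edgeR, 1 of the 2 (*Pitx1*) would pass, as would 5558 of the 15039 genes tested, and DESeq2 called 0 of the 2. Without adult control replicate 1, *Pitx1* was called lower by 1.73 on the log2 scale (edgeR adjusted p = 0.0205). The 4 macrophage and leukocyte markers summed to 163 to 223 CPM in adult control and 4608 to 4926 CPM in adult KO, with 4 of 4 called higher, and the 8 mesenchyme markers to 11384 to 11901 and 3480 to 4983 CPM, with 4 of 7 tested called lower. The part of these cells in the *Pitx1* and *Mecom* values was not tested. Of the lists above, 0 of 8 cofactors were called by edgeR or DESeq2, and 0 had an unadjusted p under 0.05. Of 7 Wnt pathway genes *Wnt11* was higher (4.64) and *Wnt2b* (−1.77), *Wnt5a* (−1.51), *Sfrp1* (−1.34) and *Wnt4* (−1.11) were lower. Of 15 gut mesenchyme factors tested, 1 was higher (*Gata3*, 1.56) and 6 were lower. In every fit without 1 library 3 of the 5 pathway calls and 3 of these 7 held.

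Each of the 6 genes had a peak within 1000 bp of at least 1 GENCODE coding start in all 4 lists, as had 69.0% of the 21679 coding genes. Of the 6 starts of *Mecom*, 3 had no peak in any list, and 1 of the 3 starts of *Gata4* had a peak in the KO intestine list only. That peak belonged to a merged region held by all 4 lists, of which only the KO intestine peak reached within 1000 bp of the start. Fold enrichments of the region were 2.68 in control stomach, 2.84 in KO stomach, 2.63 in control intestine and 2.70 in KO intestine. *Nkx6-1*, which had no RNA count in control intestine, had a peak of 2387 bp at its start in the control intestine list. The lists pooled the replicates and hold no counts, so no test between groups was possible. Fold enrichment over the background of the peak caller is an average over the whole of a broad peak and not its height, so it can be lower where a peak is wider. The highest values at a start in control stomach, KO stomach, control intestine and KO intestine were 3.76, 2.79, 3.40 and 2.84 for *Barx1*. *Nkx6-1* had 4.12, 4.58, 3.98 and 4.85, and *Lhx9* had 3.87, 3.91, 4.22 and 3.71 in the same order. All were below the median of coding genes with a promoter peak, which was 6.71, 6.56, 6.84 and 6.33. *Pitx1* had 3.69, 3.46, 3.03 and 2.53, *Gata4* had 4.22, 4.48, 4.42 and 3.38, and *Mecom* had 3.93, 4.73, 4.40 and 5.37. At most 36.3% of genes with a promoter peak were lower, a share reached by *Mecom* in KO intestine, and the smallest share was 1.77%, for *Pitx1* in KO intestine. The peaks at these starts were wider than the median of all peaks, and the widths of other promoter peaks were not compared. The averages therefore cannot show whether these peaks were lower.

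**Figure D4:**
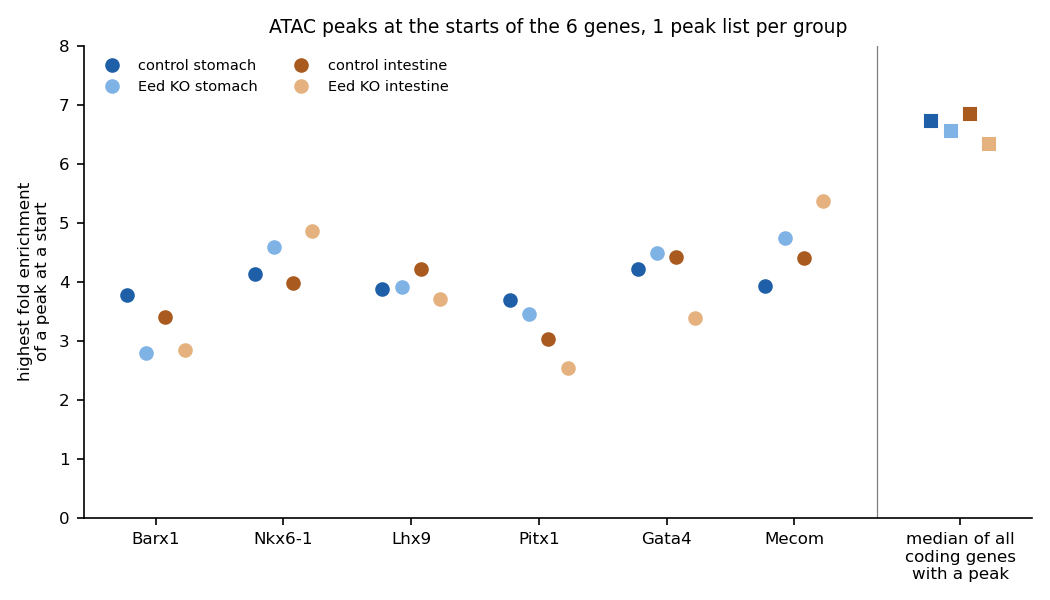
Highest fold enrichment of an ATAC-seq peak at a coding start of each gene, with 1 point for each of the 4 peak lists, and squares at the right for the median of coding genes with a promoter peak. All points of the 6 genes lie between 2.53 and 5.37, under the medians of 6.33 to 6.84.

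At *Barx1* the promoter peak was 1821 bp in control stomach, 2472 bp in KO stomach, 1134 bp in control intestine and 2931 bp in KO intestine, and at *Gata4* it was 981, 1545, 1014 and 3337 bp. At both genes the KO list of each organ had the wider peak, and at *Mecom*, with 2076, 1696, 1023 and 900 bp at its start at position 30013156, it had the narrower one. *Lhx9* ranged from 1899 to 2024 bp at its most upstream start and from 2503 to 3313 bp at the start at position 138842429. *Nkx6-1* stayed between 2387 and 2679 bp in the 4 lists and *Pitx1* between 1612 and 1923 bp. The median of all peaks was 520 to 562 bp. With a −log10 q of at least 5, the *Pitx1* promoter peak of KO intestine was lost and 5 of 6 genes kept a peak in all lists, beside 64.8% of coding genes.

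Within 50000 bp of the genes the 4 lists held 140 merged peak regions, of which 69 (49.3%) were in all lists, beside 46.0% of the 162113 regions of the genome. Regions in both stomach lists and in no intestine list were 15 (10.7%) near the 6 genes and 3.88% in the genome. *Mecom* held 10 of these 15, *Gata4* 3, *Nkx6-1* 1, *Pitx1* 1, and *Barx1* and *Lhx9* 0. Regions in both intestine lists only were 1 (*Barx1*, chr13:48697388-48697561), beside 2.70% in the genome. *Mecom* is by far the longest of the genes and held 67 of the 140 regions, so these counts are mostly about that locus, and regions of one locus are not independent.

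Regions in the control stomach list alone were 17 (12.1%) near the 6 genes and 7.32% in the genome, and 14 of the 17 were at *Mecom*. These 14 were weak peaks, with a −log10 q between 1.08 and 3.78, and of the 4 lists the control stomach list had the largest share of peaks with a −log10 q under 2 (20.0%). Peaks covered 6.13% of the *Mecom* window in control stomach and 5.38% in KO stomach, against 2.60% in control intestine and 3.88% in KO intestine, while all peaks covered 80.4, 87.7, 73.8 and 86.3 Mb of the genome in the same order. The printed region upstream of *Mecom* had a fold enrichment of 7.16 in control stomach and 5.51 in KO stomach. Inside the gene, chr3:29968594-29969905 had 4.04 and 4.80, and chr3:30073101-30073337 had 5.23 and 2.82. These regions were in the stomach lists of both genotypes and in no intestine list. Another 5 regions at *Mecom* were in both stomach lists and the KO intestine list but not in the control intestine list, among them chr3:30523820-30524306 with a fold enrichment of 4.62 in control stomach, 5.42 in KO stomach and 3.45 in KO intestine. This pattern made up 8 of the 140 regions near the 6 genes (5.71%) and 4.53% in the genome. At *Lhx9* 5 of 7 regions were in all lists, and the other 2, both within the gene, were in both KO lists only. They were chr1:138831432-138831575, with a fold enrichment of 5.82 in KO stomach and 4.01 in KO intestine, and chr1:138838227-138838479, with 2.13 and 2.15. In all, 7 regions near the 6 genes (5.0%) were in both KO lists only, beside 4.18% in the genome.

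**Figure D5:**
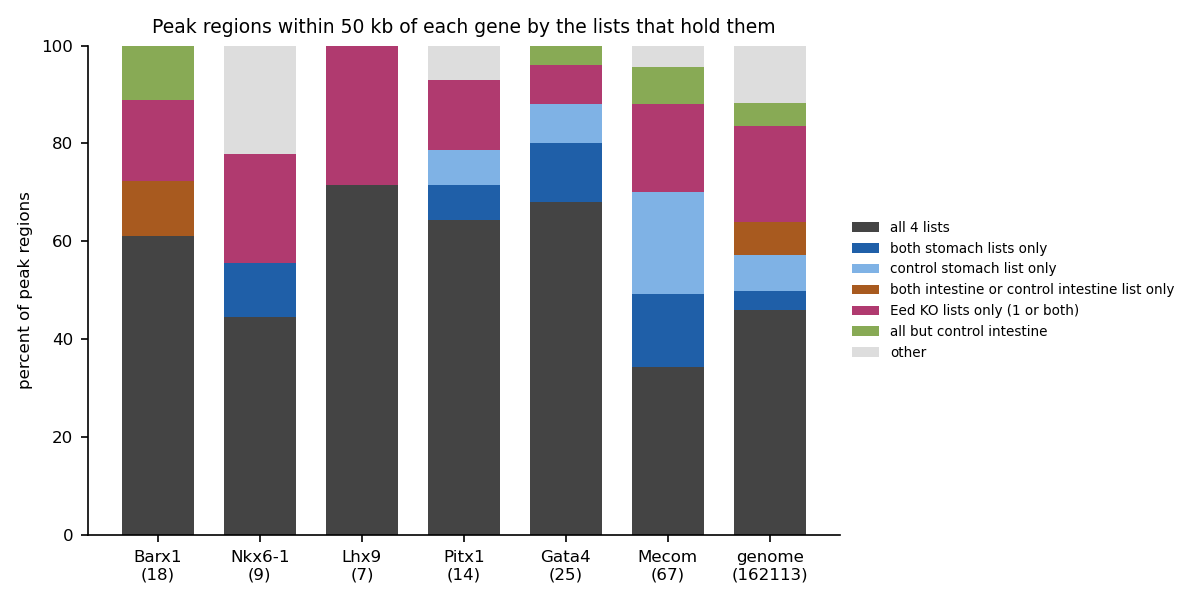
Percent of merged ATAC-seq peak regions within 50 kb of each gene, by the peak lists that hold them, with the number of regions under each bar and all regions of the genome at the right. Regions held by stomach lists only take the largest part at *Mecom*, where 10 of 67 were in both stomach lists and 14 in the control stomach list alone, and the non-shared regions at *Lhx9* are in KO lists.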

How the data were processed

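RNA was measured in 8 embryonic and 4 adult libraries and accessibility in 4 peak lists. The authors trimmed RNA-seq reads with Trimmomatic 0.32, aligned them to mm10 with STAR 2.5.1b and deposited unnormalized counts per gene symbol from featureCounts. For ATAC-seq the authors used BWA 0.7.8 and MACS2 2.1.2 on pooled replicates. Each deposited peak has a fold enrichment, a ratio over the MACS2 background, and the authors' −log10 q. Versions are from the submitters' processing notes. Embryonic libraries were stranded and the strand setting of their counting is not given in the sources used here, and adult counts were unstranded per the file headers.

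The members and gene lists were chosen with earlier results of these data known. Counts were fitted with edgeR 4.0.16 (R 4.3.3, limma 3.58.1) after TMM scaling and a filter on low counts, which left 16218 embryonic and 15039 adult genes, with 4 embryonic group means in 1 fit and 2 adult ones in another. The quasi-likelihood test was adjusted over all genes by Benjamini-Hochberg, and a call needed a log2 change beyond 1 in size with its adjusted p under 0.05. SE came from the fold change and F statistic, and the fit was tested on simulated data. The biological coefficient of variation was 15.8% in embryonic and 29.1% in adult libraries. Bounds used 3 counts and intervals were exact 95% intervals covering counting error only. TPM used the gene lengths in the adult files. Named were the 6 members, list genes that passed a test (up to 6 per list and comparison), paralogs, *Eed* and the 3 genes most similar to each member. The counts over the whole paralog list in KO intestine and in adults are not reported here. Promoter sequence was read from GRCm38 upstream of GENCODE starts and motifs were searched on both strands. Alternatives were other scalings, DESeq2 1.42.0, spike-in scaling, no filter, a replicate block, the compared groups alone, 12 fits without 1 library, and other peak windows and thresholds.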

Additional observations from a re-analysis of the deposited data

Results flagged for a closer look

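The change in *Barx1* and *Mecom* after loss of *Eed* differed between the organs. For *Barx1* the log2 change in intestine exceeded that in stomach by 4.31 ± 0.46, as it rose from 0.534 and 1.48 to 9.47 and 13.2 CPM in intestine while stomach went from 627 and 557 to 379 and 310 CPM. For *Mecom* the difference was 3.48 ± 0.36, with 0.197 and 0.202 going to 1.69 and 2.25 CPM in intestine, and 38.8 and 52.5 CPM in control beside 40.5 and 39.4 CPM in KO stomach. Both genes were chosen for their difference between the control organs, whose libraries enter this value, so it is not independent of the choice.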

How the results depend on the processing

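Of 364 values of the 6 genes under alternative settings, 318 kept their direction and side of the threshold, 18 lost the call, 20 gained it and 8 changed sign. The first count holds 66 values of the control organ difference, which the choice of the genes had fixed. In KO stomach 3 genes were called, and 5 under spike-in totals, where *Barx1* was 1.56, *Pitx1* 2.16 and *Mecom* 2.18. Under that scaling 15419 of all 16218 genes were called higher in KO stomach, so the larger count says little about the members. Leaving out 1 library gave 2 to 3 calls, with *Barx1* from −0.93 to −0.65, *Pitx1* from −0.47 to 0.0069 and *Mecom* from −0.40 to 0.042, the last 2 above 0 without control stomach replicate 2. In KO intestine 6 genes were called, and 1 to 5 with 1 library left out. *Nkx6-1* and *Lhx9* lost the call without either control intestine library, where calls over all genes became far fewer too. Between the KO organs the count was 6 to 6 with 1 library left out. The difference of the effect between organs was past its threshold for 2 genes, for 5 with DESeq2, 0 with spike-in totals, 6 with DESeq2 and 1 RUVg factor, 5 without the filter and 2 to 5 with 1 library left out (5 without KO intestine replicate 1). In adults 0 genes were called, 1 without the filter (*Pitx1*, which fell by 1.24 on the log2 scale) and 0 to 1 with 1 library left out. *Mecom* in adults was −0.0079 without the filter, −0.04 without adult control replicate 1 and −0.20 without adult KO replicate 1, within a range of −0.20 to 0.19. The cause of these differences was not tested. Under spike-in totals 0 of all 16218 genes were past the threshold for a larger effect in intestine, so that count says nothing about the members. Similar profiles kept 10 of 18 names with a pseudocount of 2.

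Labels do not say that a replicate number marks shared animals. Differences between replicates 1 and 2 correlated across genes by 0.340 between the control organs, 0.714 between the KO organs, 0.104 to 0.240 between genotypes and −0.0734 between the adult groups. With a replicate block the calls were 3 in KO stomach, 6 in KO intestine, 6 between KO organs and 0 in adults, and the difference of the effect between organs was past its threshold for 5 genes. Over all genes, 171 were past that threshold in the same direction with the block and 31 without it.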
